A study of Caenorhabditis elegans with 2 samples.

Results

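The genes described are 10 subunit genes of the vacuolar ATPase of Caenorhabditis elegans, vha-1, vha-2, vha-3, vha-4, vha-8, vha-11, vha-12, vha-13, vha-15 and vha-17, of 19973 protein-coding genes in the annotation. They were chosen by name, but they and the gene lists set beside them were chosen with earlier results of these data known. The shares below therefore only describe these genes. Each gene was given every peak that touched it or had its summit within 1000 bp of it. The peaks came from chromatin immunoprecipitation and sequencing (ChIP-seq) of RBM-26, a protein that binds RNA and corresponds to human RBM26 and RBM27. There was 1 group, strain OP801, with 2 biological replicates, so no condition was compared with another and no value below has a test. The strain was unc-119(tm4063) and carried the integrated fosmid transgene wgIs801, in which B0336.3 (rbm-26) is fused to TY1, EGFP and 3xFLAG and unc-119(+) is the rescue marker. The labels name no change to the endogenous rbm-26 gene, so the tagged protein was read from an added copy. Whole worms were collected as young adults at 66 hours, after bleaching and starvation as first-stage larvae, and an antibody against GFP was used on chromatin sonicated to 200 to 800 bp. In whole worms, strong binding in a few cells and weak binding in many cannot be told apart. A control named as possible in the labels was not analysed here.

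The vacuolar ATPase (V-ATPase) is a rotary pump that moves protons into lysosomes, endosomes and other compartments and, at the surface of some cells, out of the cell. Its peripheral sector V1 hydrolyses ATP at the A and B subunits, and the stalk subunits pass the rotation on to the membrane sector V0, where a ring of c subunits carries the protons. In the worm the pump is known for its work in the excretory canal cell, the intestine and the epidermis. Among the listed genes, vha-13 encodes the A subunit, vha-12 a B subunit, vha-11 the C subunit, vha-8 the E subunit and vha-15 an H subunit of V1. The genes vha-1, vha-2 and vha-3 encode c subunits of V0, vha-4 the c'' subunit and vha-17 the e subunit. The proteins encoded by vha-2 and vha-3 are identical.

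In the conservative peak list, which the authors made from both replicates, 6 of the 10 genes had a peak (60%), against 14.6% of all protein-coding genes by the same rule. The 6 were vha-1, vha-2, vha-8, vha-12, vha-13 and vha-17. They shared 9 merged regions, and at vha-1, vha-12 and vha-13 summits stood on both sides of the gene. The strongest regions lay just past the end of vha-13 and inside the start of vha-2, with deposited signals of 299 and 271, in a list with a median row signal of 135 and a highest of 619. The genes vha-4 and vha-11 had a peak only in the authors' wider list or in 1 replicate, and vha-3 and vha-15 had none in any thresholded list. The signal is the authors' own value for each peak, in a unit that is not given in the sources used here. It is used to order peaks within a list, and values from different lists are not on 1 scale. The depth of the libraries is unknown, so no counting error can be given.

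The genome sequence at 7 of the 9 summits is printed here, 50 bases to each side of the summit, to show the letters at which the peaks of the listed genes were centred. The windows at the vha-13 upstream region, with a signal of 171, and at the end of vha-2 overlap a UTR and are not printed. The 11 capitals mark the summit base and the 5 bases to each side. Positions are on WBcel235 (ce11), the letters were read from the RefSeq assembly of that build, and all of these genes lie on the plus strand, so each runs 5′ to 3′ in the direction of its gene.
vha-1 upstream, chrIII:9780764-9780864, plus strand: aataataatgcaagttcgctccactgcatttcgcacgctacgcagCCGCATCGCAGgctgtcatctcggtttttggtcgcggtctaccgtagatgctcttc
vha-2 inside, chrIII:9782211-9782311, plus strand: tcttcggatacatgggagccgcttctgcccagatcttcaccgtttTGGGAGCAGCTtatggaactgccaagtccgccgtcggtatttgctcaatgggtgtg
vha-8 upstream, chrIV:6790598-6790698, plus strand: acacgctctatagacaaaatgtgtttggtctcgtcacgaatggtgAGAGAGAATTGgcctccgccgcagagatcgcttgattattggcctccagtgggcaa
vha-12 upstream, chrX:4190687-4190787, plus strand: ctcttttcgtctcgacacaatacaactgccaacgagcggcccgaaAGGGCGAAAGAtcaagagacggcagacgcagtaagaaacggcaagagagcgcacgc
vha-12 past the end, chrX:4193233-4193333, plus strand: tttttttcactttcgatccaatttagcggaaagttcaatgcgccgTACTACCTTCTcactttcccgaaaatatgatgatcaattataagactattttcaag
vha-13 past the end, chrV:14354570-14354670, plus strand: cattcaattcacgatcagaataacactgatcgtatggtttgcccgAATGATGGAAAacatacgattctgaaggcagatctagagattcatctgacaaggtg
vha-17 past the end, chrIV:9322629-9322729, plus strand: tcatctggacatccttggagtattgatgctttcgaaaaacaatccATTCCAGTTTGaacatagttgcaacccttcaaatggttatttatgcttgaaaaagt

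**Figure D1:**
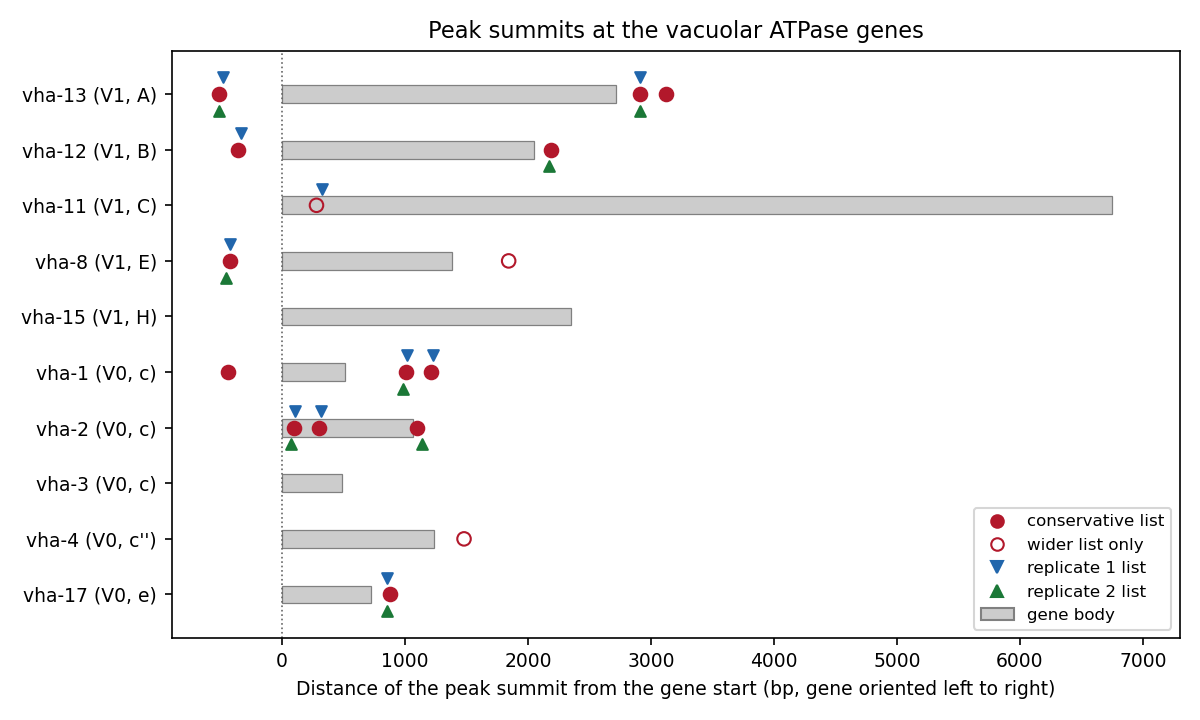
Distance of each peak summit from the start of its gene (horizontal axis, bp), for the 10 listed genes, each drawn left to right in its own direction with the gene body in grey. Filled circles are rows of the conservative list, open circles rows that only the wider list held, and triangles rows of each replicate's own list. Summits stand on both sides of vha-1, vha-12 and vha-13, and vha-3 and vha-15 have none.

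The A subunit gene vha-13 (chromosome V, 14351709 to 14354422, plus strand) had the strongest region of all the listed genes. It spanned V:14354231-14354997, was made of 2 overlapping rows with signals of 299 and 137, and ranked 188 of 2422 merged regions, above 92.2% of them. Its summit lay 198 bp past the end of vha-13 and, at the same time, 210 bp inside the neighbouring gene Y49A3A.3, in a coding exon. In the replicates' own thresholded lists the region had signals of 138 in replicate 1 (rank 295 of 2386 rows) and 169 in replicate 2 (rank 130 of 1974 rows). The summits of the replicates stood 2 and 1 bp from the summit of the region, so both placed it at the same bases. A weaker region with a signal of 171, rank 888, had its summit 511 bp before the start of vha-13 at V:14351067-14351352. This summit lay in the 3′ UTR of cept-2, 284 bp before the end of that gene, and its signal was 100.5 in replicate 1 and 66.5 in replicate 2. The region was thus in both replicates' lists, but well up the list of replicate 1 (rank 732) and far down that of replicate 2 (rank 1582).

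The B subunit gene vha-12 (chromosome X, 4191094 to 4193144, plus strand) also had a region at each side. The upstream region, X:4190592-4190759, had a signal of 157 (rank 1063) and a summit 357 bp before the start. No other protein-coding gene lay within 1000 bp of this summit, the only one of the 9 for which this was so. The downstream region, X:4193185-4193432, had a signal of 124 (rank 1605) and a summit 139 bp past the end of vha-12, which was also 731 bp past the end of F20B6.4. The replicates differed over these places. Replicate 1 listed only the upstream region, at 96.6, and replicate 2 listed only the downstream region, at 85.1. In the longer ranked lists, which hold rows below the threshold, the upstream region had 56.5 in replicate 2 and the downstream region 43.5 in replicate 1. Each replicate thus had signal on both sides of vha-12, but above the threshold only on 1 side.

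The E subunit gene vha-8 (chromosome IV, 6791074 to 6792455, plus strand) had 1 region in the conservative list, at IV:6790546-6790746, with a signal of 161 (rank 1004). Replicate 1 listed it at 85.7 and replicate 2 at 75.9, with ranks of 1081 and 1311. The summit lay 426 bp before vha-8 and 160 bp before C17H12.2, which is transcribed away from it, so the peak sat between 2 divergent starts and nearer to the other one. It was also 312 and 607 bp past the ends of the non-coding RNA genes C17H12.33 and C17H12.30. The wider list added a region 461 bp past the end of vha-8, at IV:6792761-6793075, with a signal of 87.0. That summit was 58 bp before the snoRNA gene C17H12.36 and 996 bp past the end of C17H12.3.

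The remaining V1 genes of the list had weaker signal. At vha-11 (chromosome IV, 2307815 to 2314567, minus strand), the C subunit gene and at 6753 bp the longest of the 10, the wider list held a region with a signal of 90.9, 279 bp inside the start. It overlapped an exon of the non-coding RNA gene Y38F2AL.11. Replicate 1 listed it at 62.7 (rank 1910), and replicate 2 did not list it. At vha-15 (chromosome X, 2237911 to 2240255, plus strand), an H subunit gene, no thresholded list held a peak. Its highest row in the ranked list made from both replicates, called the joint list here, had a signal of 51.5 at 12 bp past the end, with a −log10 global IDR of 0.817. The global irreproducible discovery rate (IDR) estimates the share of peaks at that rank or higher that do not reproduce. In the joint list the conservative rows had a −log10 value of at least 2. Peaks of the wider list could fall below it there, as at vha-11 (1.57) and vha-4 (1.69). The highest vha-15 rows of the replicates, 28.2 and 40.2, both stood before its start, at 71 and 266 bp. The replicates and the joint list therefore placed the highest signal at vha-15 in different positions.

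Of the c subunit genes of V0, vha-1 (chromosome III, 9781254 to 9781763) and vha-2 (9782164 to 9783224) follow each other on the plus strand with a gap of 400 bp. They are known as an operon. Between and around them lay 3 regions. The strongest, III:9782085-9782606, joined 2 rows with signals of 271 and 106, at 97 and 297 bp inside vha-2, and ranked 256, above 89.4% of regions. Its summit was in a coding exon of vha-2 and 498 bp past the end of vha-1, so the rule gave the region to both genes. Replicate 1 listed 2 rows there, the higher at 149 (rank 237), and replicate 2 listed 1 row at 130.1 (rank 319). Both replicates had it well up their lists.

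The other regions at this pair were less steady between the replicates. The one before vha-1, III:9780719-9780932, had a signal of 135 (rank 1359) and its summit 440 bp before vha-1 and 460 bp before the divergent gene sqv-3. Neither replicate's own list held it. In their ranked lists it had 53.3 in replicate 1 and 76.1 in replicate 2, with −log10 global IDR values of 1.87 and 1.81 in those lists. The region at the end of vha-2, III:9783168-9783357, had a signal of 130.0 (rank 1473), 36 bp past the end of vha-2 and in an intron of R10E11.6, 254 bp from the start of that gene. Replicate 2 listed it at 85.1, while replicate 1 had it only in the ranked list, at 51.6.

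The gene for the identical protein, vha-3 (chromosome IV, 2315460 to 2315945, minus strand), had no thresholded peak. It lies 892 bp before vha-11 on the same strand, and this pair too is known as an operon. Its highest ranked signal was 70.5, at 300 bp inside the gene, with 45.4 in replicate 1 and 32.6 in replicate 2. The printed vha-2 sequence matched vha-3 at 84.2% of its bases, centred 96 bp from the start of vha-3, and the longest run of identical bases was 17. The highest ranked summit in vha-3 thus did not lie at the stretch that matches the vha-2 summit. This describes summits only, since a row of 620 bp, the commonest width in the joint list, can span both places. Only the printed window was compared, not the rest of the 2 genes. The same sequence matched vha-1 at 60.4% and vha-4 at 41.6% of bases in the best ungapped placement. Whether reads that fit both vha-2 and vha-3 were kept or dropped is not given in the sources used here, and its part in these values was not tested.

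The c'' subunit gene vha-4 (chromosome II, 7878082 to 7879316, minus strand) had a region only in the wider list, with a signal of 83.8. Its summit was 245 bp past the end of vha-4 and in a coding exon of T01H3.2, 157 bp from the start of that gene. The ranked lists gave it 54.8 in replicate 1 and 34.4 in replicate 2. The e subunit gene vha-17 (chromosome IV, 9321801 to 9322525, plus strand) had 1 region, IV:9322369-9322988, with a signal of 162 (rank 989). Both replicates listed it, at 96.7 in replicate 1 (rank 789) and 65.1 in replicate 2 (rank 1622). Its summit was 154 bp past the end of vha-17 and in a coding exon of nspg-11 on the opposite strand. Its width of 620 bp is the commonest in the conservative list, shared by 47.5% of rows.

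Of the 9 regions, 6 were in the replicate 1 list and 7 in the replicate 2 list. The number in both was 5, with 1 in replicate 1 only, 2 in replicate 2 only and 1 in neither. The share in both was 55.6% of the 9, against 45.5% of all 2422 conservative regions, which was not tested. Over all 2422, 67.8% were in the replicate 1 list, 54.8% in the replicate 2 list and 22.8% in neither. The regions in both were those inside vha-2, upstream of vha-8, at both sides of vha-13 and past the end of vha-17. All 9 overlapped a row in the ranked list of each replicate, as did 99.4% of all 2422. When the overlap had to cover at least 50% of both intervals, 1 of the 9 was left (11.1%), against 30.5% of all 2422. The regions were 168 to 767 bp wide, and the commonest row widths were 580 bp in replicate 1 and 650 bp in replicate 2. Signals were above the median of the merged regions, 144, at 6 of the 9.

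By position, the 9 regions made 10 pairs of gene and region, since 1 region belongs to both vha-1 and vha-2. The summit was upstream in 4 pairs, inside in 1 and past the end in 5, or 40%, 10% and 50%. Over all protein-coding genes the shares of 3555 pairs were 34.6% upstream, 31.5% inside and 33.9% past the end. Summits both before the start and past the end of the same gene were found for 3 of the 6 genes with a peak, against 9.2% of the 2923 genes with a peak in the annotation. At 4 of the 9 regions the summit lay inside another protein-coding gene, and at 3 the nearest start was that of another gene. With each peak given only to the gene of the nearest start within 1000 bp, 5 of the 10 listed genes kept a peak, against 6.66% of all genes. The gene vha-8 lost its only one, and at vha-17 the peak kept was 878 bp from the start and past the end of the gene. With peaks that touch a gene, the count was 3 of the 10 against 10.3%, and with touching peaks or summits within 500 bp it was 6 of the 10 against 12.7%. No summit of the 9 was closer than 2326 bp to a tRNA, snoRNA, snRNA, miRNA or rRNA gene. Other classes of non-coding RNA gene were left out of this distance. The vha-8 summit, for one, lay 312 bp past the end of the non-coding RNA gene C17H12.33.

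The sequences differed by side. In the window of 50 bases to each side of the summit, the 4 upstream regions had a GC content of 52.5% (vha-1), 50.5% (vha-8), 55.4% (vha-12) and 63.4% (vha-13), and the region inside vha-2 had 54.5%. The regions past the end had 27.7% (vha-2), 34.7% (vha-12), 40.6% (vha-13) and 35.6% (vha-17), all lower than every upstream value. Over the list, each summit was put in a single class by its place among genes. Those only upstream of genes had a median of 49.5% (n = 487) and those only past an end 41.6% (n = 260). Summits inside a gene were a class apart, with 45.5% (n = 1098). All summits had 46.5% and the nuclear genome 35.4%. This is not the grouping used for the regions above. The upstream summit of vha-13 and those past vha-2, vha-13 and vha-17 lay inside another gene. Signal and side were not ordered alike, since the strongest region was past an end and the next inside a gene.

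Of 4 short motifs searched on both strands, CACGTG, the core bound by HLH-30 and related factors, was in 0 of the 9 summit windows and in 5.55% of all conservative summits. TGATAA, bound by intestinal zinc-finger factors such as ELT-2, was also in 0 of 9 and in 7.2% of all. TTTCAG, the splice acceptor sequence, was in 0 of 9 and in 9.85% of all. AATAAA, the poly(A) signal, was in 1 of 9 and in 14.1% of all. The match was in the window past vha-2, on the strand of that gene and 33 bp after the summit. That summit was itself 36 bp past the annotated end, so the match lay outside the annotated vha-2 gene. In windows from 250 bp before to 50 bp after the annotated start, CACGTG was in 0 of the 10 listed genes and 5.82% of all genes. TGATAA was in 2 (vha-4 and vha-13) and 30.2%. AATAAA was in 8 of the 10 and 61.5% of all, and TTTCAG in 8 of the 10 and 51.7% of all. In the 12 other V-ATPase genes, described below, these 4 motifs were in 1, 2, 5 and 7, in the same order. At vha-2 and vha-11, which follow vha-1 and vha-3 in operons, the window lies after another gene and need not be a promoter. A match describes letters only, and the absence of one says only that these letters are not in the window.

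The ranked lists gave a value for every listed gene, including those under the threshold. A row touched or stood within 1000 bp of all 10. The share of protein-coding genes with such a row was 46.7% in the joint list, 47.6% in a second such list that matched the wider peaks, 51.7% in replicate 1 and 48.8% in replicate 2. The highest such signal per gene had a median over the 10 of 159 in the joint list, 91.2 in replicate 1 and 70.5 in replicate 2. The medians over all genes with a row were 69.7, 35.4 and 38.3 in these lists. Of the 10, 9 were above the median in the joint list and in replicate 1, and 8 in replicate 2. In the joint list and in replicate 1 the gene under the median was vha-15, and in replicate 2 they were vha-3 and vha-4. Genes with a higher signal in 1 replicate mostly had it in the other, with vha-13 and the peak shared by vha-1 and vha-2 at the top of both. The highest rows of a gene were not always the same peak. At vha-12 the summit was 338 bp before the start in replicate 1 and 119 bp past the end in replicate 2. At vha-11 it was 320 bp from the start in replicate 1 and 2722 bp in replicate 2.

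**Figure D2:**
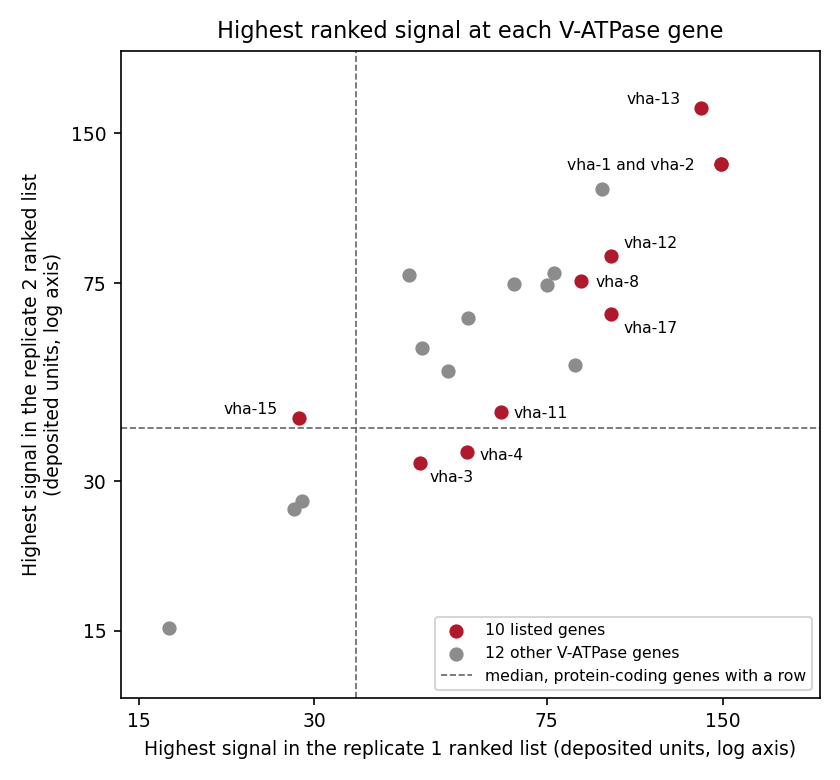
Highest ranked signal at each V-ATPase gene in replicate 1 (horizontal, log axis, deposited units) and in replicate 2 (vertical, log axis, deposited units), with the 10 listed genes in red and the 12 other V-ATPase genes in grey. Dashed lines are the medians over protein-coding genes with a row, 35.4 and 38.3, and vha-1 and vha-2 share 1 point because their highest peak is the same. At some genes, such as vha-11 and vha-12, the highest rows of the replicates are at different places.

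The other 12 V-ATPase genes of the annotation were taken by the same rule. In the conservative list 60% of the 10 listed genes had a peak, against 7 of the other 12 (58.3%), so a peak was not particular to the listed genes. Over all 22 genes 13 had a peak (59.1%), against 14.6% of all protein-coding genes. The 13 were made up of 7 of 10 V1 genes, 5 of 10 V0 genes and 1 of 2 accessory genes. The order of V1 and V0 depended on the rule. With touching peaks only it was 3 of 10 V1 and 4 of 10 V0 genes, against 10.3% of all genes. Of the other genes, vha-18 (H subunit) had the highest signal, 211 at 335 bp before its start and 269 bp before pos-1, which is transcribed the other way. The D subunit gene vha-14 had 155 at 180 bp past its end, and the G subunit gene vha-10 had 153 at 214 bp past its end and 286 bp before ubl-5. These 3 regions were in both replicates' lists.

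The remaining 4 were weaker. The second B subunit gene, spe-5, had 126 at 36 bp inside its start and the accessory gene vha-20 had 113 at 108 bp inside. The d subunit gene vha-16 had 109 at 265 bp past its end, and unc-32, an a subunit gene, had 96.4 at 184 bp before its start. Replicate 1 listed the vha-20 region, and neither replicate listed the other 3. No conservative peak was found at vha-5, vha-6 and vha-7, the other a subunit genes, at the F subunit gene vha-9 or at the accessory gene vha-19. Their highest signals in the joint ranked list were 31.8, 48.1, 26.5, 100.6 and 79.2, and vha-9 had a peak in the wider list and in each replicate's list. These vha-9 peaks were not all at the same place. The summit was 138 bp past the end in the wider list and 118 bp in replicate 2, but 918 bp past the end in replicate 1. The lowest signals of the 22 genes in that list were thus at a subunit genes. These differences between genes have no test.

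The count moved more with the list for the other V-ATPase genes than for the listed ones. In the listed genes 8 had a peak in the wider list, 7 in replicate 1, 6 in replicate 2 and 6 among conservative rows with a −log10 global IDR of at least 3. In the other 12 the counts were 7, 5, 4 and 3. The wider list does not hold every conservative peak. None of the 9 regions at the listed genes was missing from it, against 8.67% of all 2422 conservative regions. Its 7 other V-ATPase genes leave out unc-32 and take in vha-9, and among the lysosome genes it lacks asp-3. The shares of all protein-coding genes in these lists were 15.7%, 11.7%, 10.3% and 8.16%. A change of rule within the conservative list did not keep this order. Touching peaks alone left 3 of the 6 listed genes and 5 of the 7 others, against 10.3% of all genes. The nearest start left 5 and 3, against 6.66%. Gene length differed too, with a median of 1308.5 bp in the 10 listed genes, 2091 bp in the other 12 and 2027 bp in all genes, and longer genes give a peak more places to touch. Of V-ATPase genes up to 1000 bp long 3 of 5 had a conservative peak, against 11.6% of all genes of that length. From 1000 to 2000 bp it was 6 of 7 against 11.5%, from 2000 to 4000 bp 3 of 6 against 15.1%, and above 4000 bp 1 of 4 against 20.9%.

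**Figure D3:**
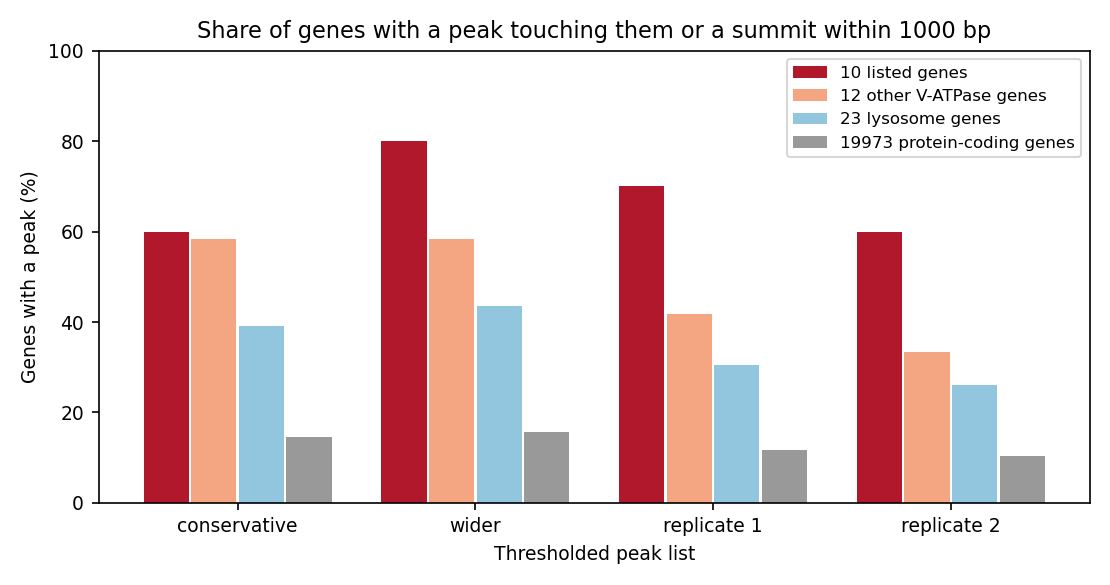
Percentage of genes with a peak touching them or a summit within 1000 bp (vertical axis) in each of the 4 thresholded lists, for the 10 listed genes, the 12 other V-ATPase genes, 23 lysosome genes and all 19973 protein-coding genes. In the conservative list the bars stand at 60%, 58.3%, 39.1% and 14.6%.

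A list of genes for lysosomal membrane proteins, lysosomal proteases and nutrient sensing at the lysosome was counted beside them, with 23 of its 24 names found in the annotation. A conservative peak was found at 60% of the listed V-ATPase genes, against 9 of the 23 lysosome genes (39.1%) and 14.6% of all genes. The strongest of the 9 were at cpl-1, a cathepsin L protease, with 270.2, and rbc-2, of the rabconnectin family known from flies and mammals to act on the V-ATPase, with 198. The lysosomal membrane protein genes scav-3 and lmp-1 had 148 and 146, ragc-1, a Rag GTPase, had 141, and asp-1, an aspartic protease, had 138. The transcription factor gene hlh-30 had 127, ppk-3, a lipid kinase, had 106, and asp-3, another aspartic protease, had 50.5. In replicate 1 the lysosome count was 7 (30.4%) and in replicate 2 it was 6 (26.1%). The median gene length was 1308.5 bp in the listed V-ATPase genes and 2693 bp in the lysosome genes.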

How the data were processed

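RBM-26::GFP ChIP-seq was measured in 2 biological replicates of 1 group of whole young adults. Per the files' columns, the authors deposited 8 peak lists on ce11 (4 thresholded, 4 ranked), each with a peak signal, and the ranked lists also with a −log10 global IDR as the authors computed it, capped at 5. The aligner, peak caller, read depth and signal unit are not stated in the sources used here, and no precision from counts can be stated. A total of 4 per-replicate signal columns in the joint ranked lists were not used.

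From these lists overlapping rows were merged to 1 region with the summit and signal of its highest row, and genes of the Ensembl 115 WBcel235 annotation were called where a peak touched them or a summit lay within 1000 bp. Replicates shared a region at an overlap of 1 bp. Python 3.11.15 with pandas 2.3.3 and numpy 2.4.6 was used, and the counting was tested on simulated peaks. No test was run. All 10 members, the other 12 V-ATPase genes, lysosome genes with a conservative peak, and neighbours within 1000 bp of member summits were named by rule. The members and lists were chosen with earlier results of these data known. Other lists, thresholds, distances and overlaps were tried. Sequences over UTRs or on chromosome I are not printed.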

Additional observations from a re-analysis of the deposited data

How the results depend on the processing

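Of 67 values recomputed under another setting, 47 stayed within the margin set (1.5 times for a count) and 20 moved. Counting only peaks that touch a gene left 3 of the 10 listed genes (vha-2, vha-13 and vha-17) and 8 of the 22 V-ATPase genes. Giving each peak to the nearest start left 8 of the 22 and 5 of the 23 lysosome genes. A −log10 global IDR of at least 3 left 4 of the lysosome genes. The share of all protein-coding genes with a peak fell too. It was 14.6% in the main count, 10.3% for touching peaks, 6.66% for the nearest start and 8.16% with the IDR setting. Each member's highest signal was placed in its list by the share of rows with a lower signal. With the IDR setting the share was 83.3% for vha-1 and vha-2, 33.3% for vha-8 (64.0% in the full conservative list), 29.6% for vha-12 (61.8%), 87.7% for vha-13 (93.5%) and 34.3% for vha-17 (64.5%), the last a smaller move than the SD of its replicates. These shares fall by construction, since the weaker rows were removed. With the nearest start it was 50.2% for vha-1 (91.2%) and 68.4% for vha-13, because their strongest regions go to vha-2 and Y49A3A.3. The regions in both replicates numbered 1 with 50% overlap and 9 with the ranked lists, in place of 5.

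Using 1 replicate's list alone, the listed genes with a peak numbered 6 to 7, the 22 V-ATPase genes 10 to 12, the lysosome genes 6 to 7 and the regions at the listed genes 7 to 8. Of all protein-coding genes, 11.7% had a peak in the replicate 1 list and 10.3% in that of replicate 2. The share of rows lower was 83.8% to 90.1% for vha-1 and vha-2, 33.6% to 54.7% for vha-8, 46.9% to 66.8% for vha-12, 87.6% to 93.4% for vha-13 and 17.8% to 66.9% for vha-17. For vha-17 the low value is that of replicate 2 alone. For vha-12 the 2 values belong to different peaks, 66.8% to the upstream peak in replicate 1 and 46.9% to the peak past the end in replicate 2. No touching peak gave a value for vha-1, vha-8 and vha-12, and no nearest start for vha-8. No paired analysis was possible because there is 1 group. Depth is unknown, so whether a region missing from 1 replicate's list was out of reach of its depth was not tested.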
